A study of Mus musculus with 2 samples.

Results

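The BCL2 family was read in Langerhans cells, epidermal antigen-presenting cells that carry Langerin, on 1 array from Il34+/LacZ mice and 1 array from Il34LacZ/LacZ mice. The set holds 10 genes named for their roles in survival and death: Bcl2, Bcl2l1, Mcl1, Bax, Bak1, Bcl2l11, Bid, Bad, Bmf and Bbc3. Members were the probe sets that the platform annotation lists under exactly 1 of these symbols. There were 9 such members of 10, each with 1 probe set, among 19937 genes in all; Bax had no such probe set and was not analysed here. Il34+/LacZ mice carry a LacZ allele in 1 copy of Il34, and Il34LacZ/LacZ mice carry it in both; IL-34 is a keratinocyte-derived ligand of the CSF1 receptor. All mice were 8 to 12 weeks old and had received ultraviolet light for 30 min, and Langerin+ Epcam+ cells were sorted 21 days later, so no array shows cells without ultraviolet exposure or mice with 2 intact Il34 copies. Whether an array held RNA of 1 mouse or of several is not given in the labels. The comparison asks how the family's transcripts differ between cells from animals with and without IL-34.

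BCL2 proteins control whether the outer mitochondrial membrane is opened during apoptosis. Pro-survival members (BCL2, BCL-XL and MCL1) hold the pore-forming effectors BAX and BAK and the BH3-only proteins in check, and BH3-only proteins such as BIM, BID, BAD, BMF and PUMA either neutralise the pro-survival proteins or activate the effectors. Many members are controlled after transcription, for example MCL1 by rapid degradation, BAD by phosphorylation and BID by cleavage, so transcript levels show only a part of this balance. Dendritic cell survival is known to depend on these proteins.

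The promoter sequences of a few members are shown. As deposited, the pro-survival members Bcl2 and Mcl1 read lower in Il34LacZ/LacZ (log2 differences of -0.92 and -0.63). Of the BH3-only members, Bcl2l11 read slightly lower (-0.10) and Bbc3 higher (0.45). Once level was taken into account, Bcl2 (-0.79) and Mcl1 lay below the usual difference of their level, and Bbc3 (0.36) and Bcl2l11 (0.31) above theirs. Mcl1 differed little from other genes of its level (-0.14 once level was taken into account). Bak1 (-0.59) and Bcl2l1 (-0.38), whose windows are not printed, lay further below their level. RefSeq promoter windows on GRCm38.p6 matched all 10 symbols with 18 windows; the 250 bases before the transcription start were searched on both strands. In Bcl2l11 (chr2:128125788-128126037, + strand) and Bbc3 (chr7:16310011-16310260, + strand), capitals mark the forkhead core TGTTTAC or its reverse complement GTAAACA, the recognition letters of FOXO factors:
Bcl2l11: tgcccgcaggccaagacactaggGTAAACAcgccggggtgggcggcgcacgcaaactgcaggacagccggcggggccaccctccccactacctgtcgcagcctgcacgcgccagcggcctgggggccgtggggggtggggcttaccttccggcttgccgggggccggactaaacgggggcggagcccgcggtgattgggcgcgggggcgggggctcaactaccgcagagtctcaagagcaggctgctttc
Bbc3: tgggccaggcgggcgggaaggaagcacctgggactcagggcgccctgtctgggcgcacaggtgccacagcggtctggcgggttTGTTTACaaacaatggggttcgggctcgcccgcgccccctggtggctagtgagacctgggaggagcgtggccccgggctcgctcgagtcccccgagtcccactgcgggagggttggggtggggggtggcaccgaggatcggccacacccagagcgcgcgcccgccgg
In Bcl2 (chr1:106714291-106714540, - strand) and Mcl1 (chr3:95658471-95658720, + strand), capitals mark the GC box GGGCGG or its reverse complement CCGCCC:
Bcl2: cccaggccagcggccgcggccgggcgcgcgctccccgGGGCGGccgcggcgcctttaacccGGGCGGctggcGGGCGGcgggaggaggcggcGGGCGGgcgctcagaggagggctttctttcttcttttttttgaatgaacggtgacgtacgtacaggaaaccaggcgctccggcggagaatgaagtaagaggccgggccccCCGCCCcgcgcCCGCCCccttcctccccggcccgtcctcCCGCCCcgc
Mcl1: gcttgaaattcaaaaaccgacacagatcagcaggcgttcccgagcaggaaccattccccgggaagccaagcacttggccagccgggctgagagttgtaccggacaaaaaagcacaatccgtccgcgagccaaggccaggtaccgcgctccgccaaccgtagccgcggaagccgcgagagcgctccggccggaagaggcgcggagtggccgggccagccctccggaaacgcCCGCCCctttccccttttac
The forkhead core was found in 2 of the 18 member windows, 1 each of Bcl2l11 and Bbc3, and in 3.17% of 32851 windows of all genes. It began 227 bases before the start in Bcl2l11 and 167 bases before it in Bbc3. The GC box was found in 10 of the 18 windows and in 32.7% of all windows. G and C, its only letters, made up 47.6% to 81.6% of the member windows, against a median of 52.4% over all windows. The part of base composition in this count was not tested. Among the Bbc3 windows, 2 overlap. The Bcl2 stretch held 7 matches to the GC box and the Mcl1 stretch 1. The GC box was not particular to pro-survival members. Windows of Bax, Bcl2l11, Bid, Bad and Bbc3 held it too, and those of Bcl2l1, Bak1 and Bmf did not. The Bcl2l11 and Bbc3 stretches above hold 3 and 1 matches, not marked there, and another Bbc3 window holds 7. The E-box CACGTG was in 2 of the 18 windows (6.02% of all) and CCAAT or its reverse complement ATTGG in 6 (33.8% of all). The letters of AP-1 (TGANTCA), STAT (TTCNNNGAA) and CRE (TGACGTCA) were in 0 of the 18, and in 6.75%, 7.02% and 1.55% of all windows. These matches describe letters and do not show that a factor was bound.

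Each level is the authors' intensity of a probe set on a linear scale. Differences are log2(intensity + 16) in Il34LacZ/LacZ minus Il34+/LacZ, and folds are on that scale, which understates the change of dim genes. An intensity of 48.7, the median over all probe sets, served as the floor, and all 9 members were above it on both arrays. Most brighter genes had lower readings in Il34LacZ/LacZ, so a difference at matched level is also given: the difference minus a smooth trend fitted over genes of every level. Each genotype has a single array, so no test and no replicate error can be given. As the one error the files offer, different probe sets of 1 gene disagreed with an SD of 0.63 in log2 units (614 genes), or 1.55-fold. It holds probe noise and transcript variants, not variation between mice or sorts. This SD was taken from differences as deposited, so the trend with level adds to it where the probe sets of a gene differ in level. No SD was computed at matched level, and the same value is set beside matched differences. In such bulk samples, fewer cells of a type and less RNA per cell cannot be told apart.

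All 3 pro-survival members read at least 1.5-fold lower in Il34LacZ/LacZ, while the pro-death members were mixed. Bak1 and Bad read lower, Bmf, Bcl2l11 and Bid differed by less than 1.5-fold, and Bbc3 read higher by less than 1.5-fold. Of the 9 members, 5 were at least 1.5-fold lower, against 29.9% of the 12843 genes that reached the floor, and 0 were that much higher, against 16%. At matched level 2 of 9 members, Bcl2 and Bak1, were at least 1.5-fold lower, against 18.6% of genes, and 0 were higher, against 13.9%, so the members' share came close to that of other genes once level was taken into account. All 9 members lay between the 10th and the 90th percentile of the differences of the 500 genes nearest to them in level. The count of members at least 1.5-fold lower was 2 instead of 5 with each array divided by its 75th percentile or after quantile normalization. These were again Bcl2 and Bak1, and the shares of all genes were 17.7% and 19.6%.

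Bcl2 (Entrez gene 12043), the founding pro-survival protein of the family, had an intensity of 145.4 in Il34+/LacZ against 69.5 in Il34LacZ/LacZ. The Il34LacZ/LacZ array was the lower one, 1.89-fold, a difference of -0.92. At matched level the difference was -0.79, the only member whose matched difference exceeded the probe set SD. With a pseudocount of 64 the matched difference was -0.54, short of 1.5-fold. Bcl2 lay at percentile 14.8 of the 500 genes nearest in level.

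Bcl2l1 (Entrez gene 12048), which encodes BCL-XL and by splicing the pro-death BCL-XS, had an intensity of 262.4 in Il34+/LacZ against 138.0 in Il34LacZ/LacZ. It was 1.81-fold lower in Il34LacZ/LacZ, a difference of -0.85 that came to -0.38 at matched level. A single probe set cannot separate the long and the short transcript.

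Mcl1 (Entrez gene 17210), a short-lived pro-survival protein needed by many myeloid cells, had an intensity of 2459.8 in Il34+/LacZ against 1580.3 in Il34LacZ/LacZ. Both readings were far above the floor. The difference of -0.63, or 1.55-fold lower, was of the size of the probe set SD and came to -0.14 at matched level, so Mcl1 differed about as much as other bright genes did.

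**Figure D1:**
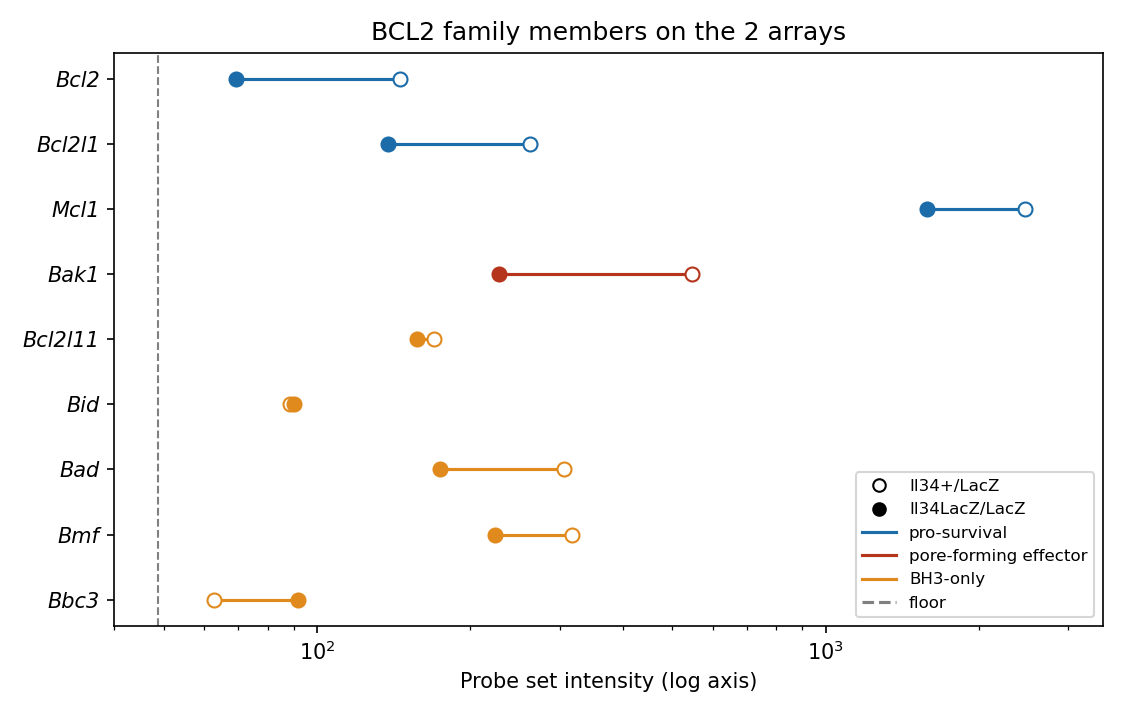
Probe set intensity (log axis) of the 9 members on the Il34+/LacZ array (open circles) and the Il34LacZ/LacZ array (filled circles), 1 array each, with a line joining the pair and a dashed line at the floor of 48.7. Bcl2, Bcl2l1, Mcl1, Bak1, Bad and Bmf sit to the left in Il34LacZ/LacZ, Bcl2l11 and Bid nearly coincide, and Bbc3 sits to the right (62.7 against 91.8).

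Bak1 (Entrez gene 12018), the pore-forming effector BAK, was the member furthest apart as deposited. It had an intensity of 546.2 in Il34+/LacZ against 228.5 in Il34LacZ/LacZ. The Il34LacZ/LacZ reading was 2.30-fold lower, a difference of -1.20, and Bak1 was the 1 member at least 2-fold lower, against 13.2% of genes. That call depended on the setting. Bcl2 was also past 2-fold with a pseudocount of 1 (-1.06), and Bcl2 and Bcl2l1 were with each array divided by its median (-1.09 and -1.04). Bak1 itself was short of 2-fold with arrays scaled by their 75th percentile (-0.92) or by quantiles (-0.70). As deposited 0 members were 2-fold higher, against 2.57% of genes, and at matched level 0 were 2-fold lower or higher, against 7.05% and 4.14%. At matched level the Bak1 difference was -0.59, just past 1.5-fold and inside the probe set SD. With a narrower trend (smoothing fraction 0.1) it was -0.53, with the median of the 500 nearest genes in place of the trend it was -0.47, and with a pseudocount of 64 it was -0.52, each short of 1.5-fold.

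The BH3-only members were spread around the general trend, with differences from -0.76 to 0.45 as deposited and from -0.22 to 0.36 at matched level. Bad (Entrez gene 12015), a sensor of growth factor withdrawal that binds BCL2 and BCL-XL, had an intensity of 306.1 in Il34+/LacZ against 174.5 in Il34LacZ/LacZ. It was 1.69-fold lower, but -0.22 at matched level, within the probe set SD. Bmf (Entrez gene 171543), a BH3-only protein held at the actin cytoskeleton, read 317.8 and 224.3, a difference of -0.47 that became 0.10 at matched level. Bmf thus read lower in Il34LacZ/LacZ only to the extent that genes of its level did.

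Bcl2l11 (Entrez gene 12125) encodes BIM, the BH3-only protein induced when cytokine support is withdrawn and sequestered by dynein light chains. It had an intensity of 170.1 in Il34+/LacZ against 157.1 in Il34LacZ/LacZ, nearly the same value. Its difference was -0.10 as deposited and 0.31 at matched level, and as deposited it turned to the other sign, up to 0.24, when arrays were scaled by their 75th percentile or by quantiles. Bid (Entrez gene 12122), which links death receptors and caspase-8 to mitochondria, read 88.5 and 90.3. The difference of 0.03 was 0.06 at matched level, and as deposited it was -0.14 with each array divided by its median. Bbc3 (Entrez gene 170770) encodes PUMA, a BH3-only protein induced by p53 and by FOXO factors, and had an intensity of 62.7 in Il34+/LacZ against 91.8 in Il34LacZ/LacZ. It was the member with the highest difference, 0.45 as deposited (1.37-fold) and 0.36 at matched level, within the probe set SD and at percentile 70.0 of genes of its level. Both of its readings were close to the floor.

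**Figure D2:**
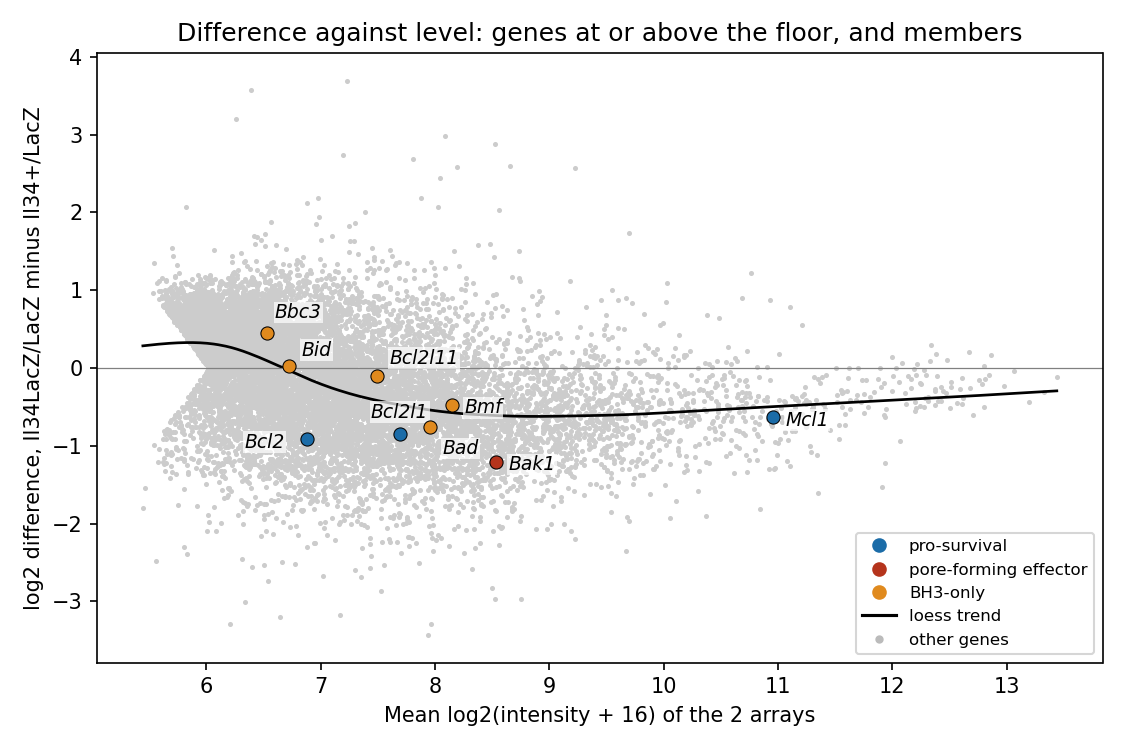
Difference between arrays (log2, Il34LacZ/LacZ minus Il34+/LacZ) against mean log2(intensity + 16) for the 12843 genes at or above the floor (grey), with the loess trend as a black line and the 9 members in colour by role. Bcl2 and Bak1 lie furthest below the line, by 0.79 and 0.59, while Bbc3 and Bcl2l11 lie furthest above it, by 0.36 and 0.31, all within the cloud of other genes.

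As groups, the pro-survival members had a lower median difference than the pro-death members, and the error of that gap is not known. The median difference was -0.85 over the 3 pro-survival members and -0.29 over the 6 pro-death members measured, so the pro-survival median lay 0.56 lower. It was -0.16 over all genes at or above the floor. At matched level the medians were -0.38 for pro-survival members, 0.08 for pro-death members and 0.03 for all genes, with the pro-survival median 0.46 lower. The pro-death median changed sign in 2 settings, to 0.05 as deposited after quantile normalization and to -0.06 at matched level with the raised floor described next. The BH3-only members alone had a median of 0.10 at matched level and of -0.10 as deposited, but of 0.16 and 0.11 as deposited after scaling by the 75th percentile and by quantiles. With the floor raised to an intensity of 126.9, which leaves out Bid and Bbc3, the pro-survival median lay 0.24 lower as deposited and 0.32 lower at matched level. A median over 3 genes measured once has no error here, and Bax, the other effector, is missing from the pro-death side.

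Dividing an array by a constant leaves the ratio of 2 genes within it unchanged, apart from the added 16, so each pro-survival member was also set against each pro-death member. In 14 of 18 pairs the pro-survival member had the lower difference, and in 15 of 18 at matched level. The pairs share members and are not independent. The exceptions as deposited were the 3 pairs with Bak1 and the pair of Mcl1 with Bad. Quantile normalization does alter such ratios: the pair of Bcl2 with Bak1 went from 0.28 to -0.11, and the count as deposited from 14 to 15. The widest pair was Bcl2 with Bbc3: its log2 ratio was 1.37 lower in Il34LacZ/LacZ as deposited and 1.14 lower at matched level. The pair of Bcl2 with Bcl2l11 shifted by -0.81 as deposited and -1.10 at matched level, and that of Mcl1 with Bcl2l11 by -0.53 and -0.45. For a difference of 2 genes the probe set SD comes to 0.90; 4 of 18 pairs as deposited and 2 of 18 at matched level lay beyond it, all with the pro-survival member lower. The 4 as deposited were the pairs of Bcl2, Bcl2l1 and Mcl1 with Bbc3 and the pair of Bcl2 with Bid. Of these, 3 rest on the dim probe set of Bbc3. The 2 at matched level were the pairs of Bcl2 with Bbc3 and of Bcl2 with Bcl2l11. Both rest on the probe set of Bcl2, which read 69.5 in Il34LacZ/LacZ, below the 91.8 of Bbc3.

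**Figure D3:**
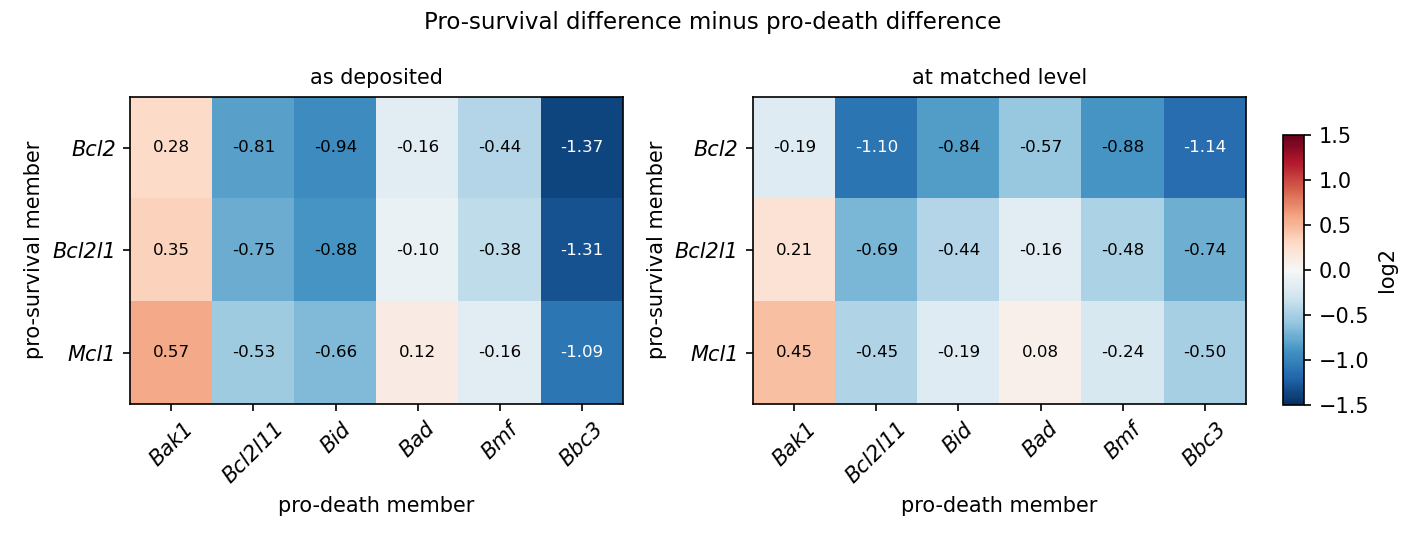
Difference of each pro-survival member (rows) minus that of each pro-death member (columns), in log2 units between the 2 arrays, as deposited (left) and at matched level (right); blue cells mark a lower pro-survival member. The column of Bak1 is the one with mostly red cells, up to 0.57 as deposited, and the column of Bbc3 is the bluest as deposited, down to -1.37.

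The other pro-death and mitophagy genes of the family differed in both directions. All 8 such genes were measured and 7 reached the floor. As deposited 2 passed 1.5-fold to the higher and 2 to the lower side, against 16% and 29.9% of all genes. At matched level the counts were 3 and 1, against 13.9% and 18.6%. Hrk, a BH3-only protein best known from neurons, had an intensity of 121.0 in Il34+/LacZ against 219.8 in Il34LacZ/LacZ, a difference of 0.78 and of 1.20 at matched level. Bok, an effector-like relative of BAX and BAK, read 72.4 and 124.7, a difference of 0.67 and of 0.76 at matched level. Both were higher in Il34LacZ/LacZ under each scaling tried. Bnip3l, a mitochondrial receptor for mitophagy, read 456.9 and 488.3, a difference of 0.09 that was 0.71 at matched level and -0.10 as deposited with each array divided by its median.

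Bcl2l13, another mitophagy receptor with BCL2 homology, ran the other way, from 133.1 in Il34+/LacZ to 50.9 in Il34LacZ/LacZ, a difference of -1.16 and of -1.18 at matched level. Pmaip1, which encodes the MCL1-binding BH3-only protein NOXA, read 276.3 and 161.4, a difference of -0.72 that was -0.21 at matched level. Bik, a BH3-only protein of the endoplasmic reticulum, read 71.9 and 85.0, a difference of 0.20 and of 0.13 at matched level. Bnip3, a mitophagy receptor, read 210.5 and 197.7, a difference of -0.08 and of 0.41 at matched level, but its second probe set differed by -0.63 and by -0.23 at matched level. Bcl2l14 was below the floor on both arrays (31.3 and 28.3). On the pro-survival side Bcl2l2, which encodes BCL-W, read 53.3 and 70.0, a difference of 0.31 and of 0.07 at matched level, and Bcl2l10 was below the floor (11.4 and 16.9). The genes Bcl2a1a, Bcl2a1b and Bcl2a1d of the same list were not analysed here.

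Listed genes of mitochondrial release and caspase activation read lower or within 1.5-fold as deposited, apart from Cycs. The list includes the membrane channel genes Vdac1, Vdac2 and Vdac3, which do not act downstream of the pore. They were among the lower genes as deposited (-0.90, -0.82 and -0.64) and came to -0.28, -0.21 and -0.02 at matched level. A second Vdac2 probe set differed by -0.34, short of 1.5-fold, and by 0.28 at matched level. Of the 12 listed genes 11 were measured. As deposited 7 passed 1.5-fold to the lower and 1 to the higher side (median -0.67), against 29.9% and 16% of all genes. The lower count was 4 with arrays scaled by their 75th percentile or by quantiles, against 17.7% and 19.6% of all genes. The higher count was 0 with each array divided by its median or with the mean of a gene's probe sets. The shares of all genes were then 8.75% and 15.5%. At matched level the counts were 4 and 1 (median -0.28), against 18.6% and 13.9%. Xiap, the inhibitor of caspases 3, 7 and 9, had an intensity of 150.4 in Il34+/LacZ against 58.9 in Il34LacZ/LacZ, a difference of -1.15 and of -1.07 at matched level. Aifm1, a flavoprotein of the mitochondrial intermembrane space, read 113.0 and 56.4, a difference of -0.83 and of -0.88 at matched level. Cycs, the cytochrome c that assembles the apoptosome, read 402.8 and 672.8, a difference of 0.72 and of 1.34 at matched level. A dimmer Cycs probe set read 198.3 and 183.5, a difference of -0.10, and Cycs has processed gene copies that could share its signal, so its value is uncertain.

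Transcription factors known to control the family lay mostly within 1.5-fold. Of 13 listed, 11 were measured; 3 passed 1.5-fold to the lower and 0 to the higher side as deposited, against 29.9% and 16% of all genes. The counts were 0 and 2 with arrays scaled by their 75th percentile, against 17.7% and 29.7% of all genes. After quantile normalization the counts were 0 and 1, against 19.6% and 17.5%. The median was -0.23, but 0.04 with arrays scaled by their 75th percentile and 0.16 after quantile normalization. At matched level 0 were lower and 1 was higher (median 0.24), against 18.6% and 13.9%. Stat5a, a cytokine-activated inducer of Bcl2l1 and Mcl1, had an intensity of 258.9 in Il34+/LacZ against 330.8 in Il34LacZ/LacZ, a difference of 0.34 and of 0.92 at matched level. Rela, a subunit of NF-kB, read 469.9 and 446.4, a difference of -0.07 as deposited, of up to 0.46 after other scaling, and of 0.55 at matched level. Foxo1 read 125.4 and 137.2, a difference of 0.12 as deposited, -0.06 with each array divided by its median, and 0.42 at matched level. Its relative Foxo3, named here because the forkhead core was searched above, read 288.5 and 192.1, a difference of -0.55 and of -0.00 at matched level.

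Counts among kinases, ligases and binding partners of the members depended on the scaling. Of 24 listed, 21 were measured; 10 passed 1.5-fold to the lower and 0 to the higher side (median -0.58), against 29.9% and 16% of all genes. The counts were 4 and 1 (median -0.33) with arrays scaled by their 75th percentile, against 17.7% and 29.7% of all genes. After quantile normalization the counts were 3 and 2 (median -0.13), against 19.6% and 17.5%. At matched level they were 3 and 3 (median -0.10), against 18.6% and 13.9%. Ywhah, a 14-3-3 protein of the family that holds phosphorylated BAD in the cytosol, had an intensity of 3023.0 in Il34+/LacZ against 1222.6 in Il34LacZ/LacZ, a difference of -1.29 and of -0.80 at matched level. Its second probe set differed by -0.55, or 0.02 at matched level. Fbxw7, a ubiquitin ligase adaptor that targets MCL1, read 246.1 and 101.2, a difference of -1.16 and of -0.76 at matched level; its second probe set differed by -0.52 on both scales, short of 1.5-fold. Pim3, a kinase that can phosphorylate BAD, read 176.2 and 215.4, a difference of 0.27 and of 0.75 at matched level.

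**Figure D4:**
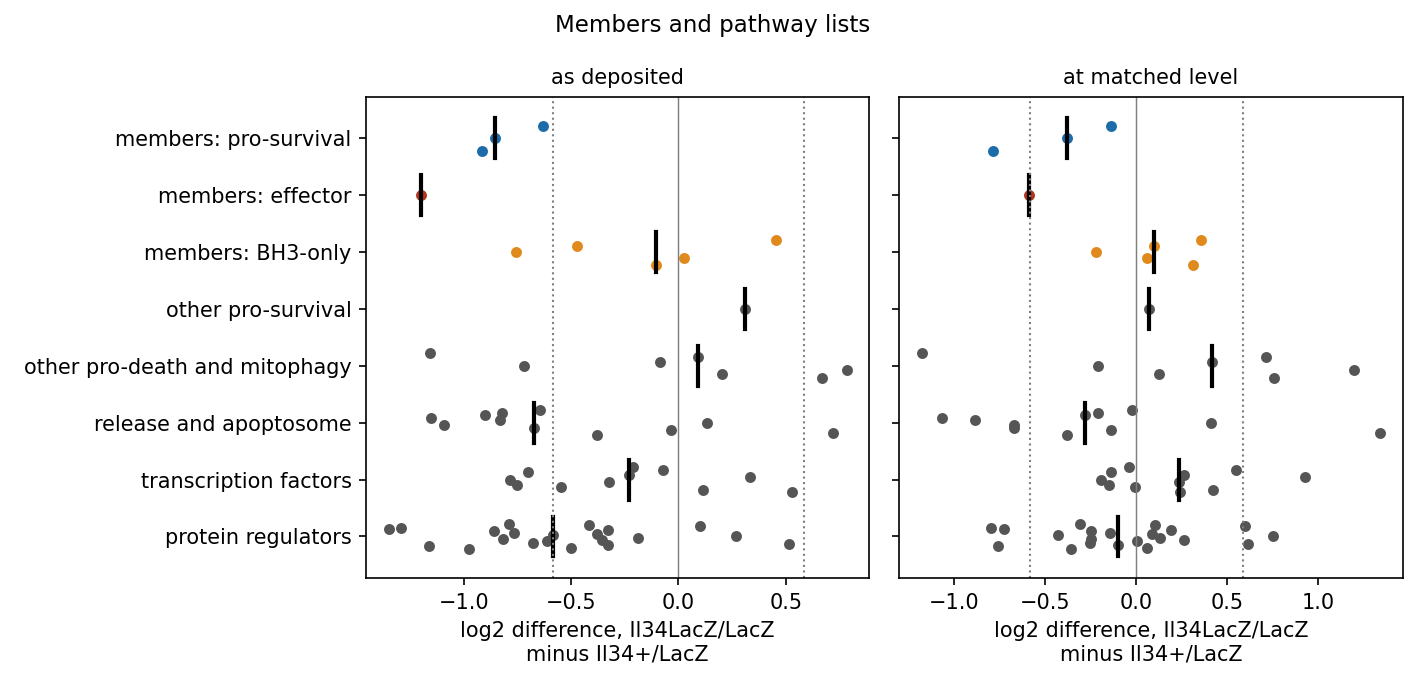
Differences between arrays (log2, Il34LacZ/LacZ minus Il34+/LacZ) of the members and of the pathway genes at or above the floor, as deposited (left) and at matched level (right); each point is a gene, the black bar is the list's median and dotted lines mark 1.5-fold. The pro-survival members lie at -0.63 or lower as deposited and all stay below 0 at matched level, whereas the BH3-only members range from -0.76 to 0.45 and from -0.22 to 0.36.

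Il34 itself, which these cells are not known to make, read 39.4 in Il34+/LacZ against 64.4 in Il34LacZ/LacZ, so its probe set near the floor does not check the genotype labels. The sorted cells carried the defining markers of Langerhans cells and also those of T cells. All 9 Langerhans markers were above the floor on both arrays, with a summed intensity of 33241 in Il34+/LacZ and 27638 in Il34LacZ/LacZ; Cd207, which encodes Langerin, read 3153.0 and 1852.0, the sorting marker Epcam 632.9 and 707.7, the invariant chain gene Cd74 7514.1 and 6837.0, and the IL-34 receptor gene Csf1r 2507.3 and 1510.7. Of 9 T cell markers 7 were measured, all above the floor on both arrays, with a sum of 5075 and 4904; Cd3e, named after its values were seen, read 1245.4 and 1250.3. The 12 keratinocyte markers summed to 4377 in Il34+/LacZ and 873 in Il34LacZ/LacZ, with 11 and 9 above the floor. Krt14, the one furthest apart, read 787.4 and 58.6. Of the 11 that reached the floor, 9 were at least 1.5-fold lower, against 29.9% of all genes. Lgals7 (128.2 and 129.4) and Trp63 (154.6 and 103.1) were within 1.5-fold. The 11 neutrophil markers summed to 774 and 1825, with 3 and 8 above the floor, and the gap between the sums came mostly from S100a8 (71.9 and 552.1) and S100a9 (103.2 and 698.6). Among others of that list, Mmp9 read 380.2 and 190.9, Cxcr2 33.6 and 25.5, and Ly6g 8.5 and 11.5. Of 9 macrophage markers 8 were measured, 7 above the floor on each array, with sums of 1459 and 2907. Pf4 (148.1 and 975.3) and C1qa (256.2 and 598.8) held most of that gap, while Adgre1 read 281.0 and 144.6 and Mrc1 66.6 and 68.7. The 6 fibroblast and 6 endothelial markers summed to 247 and 395 and to 243 and 333, with 3 and 3 and with 1 and 3 above the floor. Keratinocytes, T cells, neutrophils and macrophages also express members of the BCL2 family, and the part of these cells in the differences above was not tested.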

How the data were processed

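Gene expression was measured in sorted Langerhans cells on 2 arrays, 1 per genotype. Per the labels, 2 ng of total RNA went into the biotinylated cRNA. Intensities were deposited already processed, 1 value for each probe set; for the probe summary, background removal and scaling the method is not given in the sources used here. They were taken as linear because all values were above 0, skewed and as high as 13768. The platform annotation gave 21640 of 34760 probe sets 1 symbol, 1321 several and 11799 none; only the first were named.

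A gene took its probe set with the highest mean. Values were transformed as log2(intensity + 16). The trend was a loess fit (fraction 0.3) of the difference on the mean level over single-symbol probe sets. Called means at least 1.5-fold apart. Named were all members, the other BCL2 family genes and marker genes, and of each other list the 3 genes furthest apart at matched level. Added after their values were seen were Cd3e, Foxo3, Ly6g, S100a9, Mmp9, Cxcr2, Pf4, C1qa, Adgre1, Mrc1, Lgals7, Trp63, Vdac1, Vdac2 and Vdac3. The members and lists were chosen with earlier results of these data known. Alternatives changed the pseudocount, floor, scaling, probe set rule, trend and members. The computation was tested on simulated data. Python 3.11.15, numpy 2.4.6, pandas 2.3.3, statsmodels 0.14.6 and matplotlib 3.10.9 were used.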

Additional observations from a re-analysis of the deposited data

How the results depend on the processing

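No paired analysis was possible because each genotype has 1 array. The pro-survival median lay below the pro-death median in all 19 alternatives as deposited, by 0.24 to 0.75, and in all 22 at matched level, by 0.32 to 0.66; these include each member left out in turn. They also include 2 sets added after the data were seen: with Bcl2l2, Bok, Bik, Hrk and Pmaip1 added it lay 0.70 and 0.37 lower, and against the BH3-only members alone 0.75 and 0.48 lower. Counts of members moved more, from 5 as deposited. With each array divided by its median 6 were at least 1.5-fold lower, Bmf being the added one, against 39.2% of all genes. With arrays divided by their 75th percentile, 2 members were at least 1.5-fold lower, against 17.7% of all genes. In that setting 1 member, Bbc3, was higher, against 29.7%. After quantile normalization 2 were lower and 0 higher, against 19.6% and 17.5%. At matched level 0 were lower with a pseudocount of 64, against 10.7% of all genes. With a loess fraction of 0.1 or with the median of the 500 nearest genes 1 was lower, Bcl2, against 18.1% and 18.2%. Scaling by the median, by the 75th percentile and by quantiles moved the median difference of all genes by -0.20, 0.31 and 0.19. Of the genes at least 1.5-fold apart as deposited, 34.8% were higher, against 18.3%, 62.6% and 47.2% under these scalings, and against 42.8% at matched level. The mean over probe sets could not alter members with 1 probe set. Leaving out the floor could not alter the gap between the medians either, since all 9 members were above it. Dividing an array by a constant nearly cancels in that gap (-0.563 and -0.567 as deposited, against -0.565). These settings therefore say little about how firm the gap is. Signal over background limits Bbc3, Bid and Bcl2, the members nearest the floor.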

Other observations

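With 2 arrays, likeness between genes can only mean similar readings on both. The 3 genes nearest to Bcl2 in the plane of the 2 log2 levels were the replication factor gene Rfc3 (143.8 in Il34+/LacZ and 69.3 in Il34LacZ/LacZ), Smarcal1 (143.1 and 69.1) and Crk (147.7 and 70.4). Those nearest to Bak1, the pro-death member furthest apart at matched level, were Baz2a (544.4 and 227.9), Ap2b1 (550.0 and 229.9) and Epn1 (539.6 and 228.7).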
